A study of Mus musculus with 16 samples.

Results

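The genes described here are the 21 whose RNA was higher in every fetal lung exposed to BMS493 than in every control lung, in each of 2 mouse strains. BMS493 is an inverse agonist of all the retinoic acid receptors (RARs). Expression is given as CPM, the count of a gene divided by the sum of the gene counts of its library and multiplied by 1000000. A gene was taken when its mean CPM over the 16 libraries was at least 1, when its lowest CPM with BMS493 was above its highest control CPM in C57BL/6J (B6), and when the same was true in A/J. Of 57180 genes in the files, 14540 had a mean CPM of at least 1. Of these, 240 (1.65%) were separated in this way in B6, 341 (2.35%) in A/J and 21 (0.144%) in both. The mirror rule, lower with BMS493 in both strains, held for 98 genes (0.674%), and single-strain separation downward for 3.27% in B6 and 2.87% in A/J. The 21 genes were chosen by their CPM with BMS493 against control, so no test of that contrast is read as a result for them.

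RNA was measured in whole lungs of male fetuses at E14.5, embryonic age in days, in 4 libraries for each of 4 groups. The groups were B6 control, B6 BMS493, A/J control and A/J BMS493. Pregnant dams of the BMS493 groups received the compound orally at 3.75 µg/g daily between E9.5 and E14.5, and dams of the control groups were given corn oil. No group carries an engineered allele in the labels. Litters are not given, so the tests below measure the spread between these samples, and the treatment reached the lung only through the dam. Libraries held 15207539 to 24146224 gene counts. In a whole organ, more cells of a type cannot be told apart from more RNA per cell.

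Retinoic acid is made from vitamin A and binds RARs, which sit on DNA as pairs with retinoid X receptors. With ligand the pair recruits coactivators, and with an inverse agonist it holds corepressors, so direct targets are turned down. In the fetal lung this signal acts largely in the mesenchyme, the connective tissue that surrounds the branching epithelium and gives rise to fibroblasts, airway smooth muscle and vessel walls.

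The exposure was visible in the known targets of the receptors. Of 23 retinoid target genes 18 were tested, and 6 fell and 0 rose in each strain (edgeR, adjusted p under 0.05). Of all genes tested 0.347% fell in B6 and 0.423% in A/J. Cyp26b1, which breaks retinoic acid down, fell by 3.68 on the log2 scale in B6 and fell by 4.24 in A/J. Lrat, which stores retinol as ester, fell by 2.51 and fell by 5.53, and Dhrs3, which reduces retinal, fell by 1.31 and fell by 2.07. The level of Lrat was low in B6, averaging 1.39 CPM in controls and 0.245 with BMS493, against 16.5 and 0.355 in A/J. Rarb, a receptor gene that is itself a target, fell by 1.02 and fell by 1.56. The B6 calls of Rarb, Stra6 and Hoxa5 rested on single libraries, and without B6 control replicate 1 all 3 were lost. Rarb was also lost without any other B6 control and without B6 BMS493 replicate 2 (adjusted p reaching 0.079). Stra6 was also lost without any other B6 control, without B6 BMS493 replicate 2 or 3, with the replicate block and with a strand column (adjusted p reaching 0.129). In A/J the Nrip1 call was lost on omitting any of 7 of the 16 libraries (adjusted p reaching 0.172). The log2 fold changes of Rara were -0.049 in B6 and 0.035 in A/J, those of Rarg -0.31 and -0.14 and those of the retinoic acid synthesis gene Aldh1a2 -0.040 and 0.18, and none of these was called. Of 29 tested genes of retinoid uptake, synthesis, breakdown and reception, Rarb, Cyp26b1, Lrat and Dhrs3 among them, 5 fell in B6 and 4 in A/J. None of the 23 targets is among the 21 genes.

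In B6, replicate 2 of the BMS493 group had the highest value of its group for 10 of the 21 genes, and replicate 1 had the lowest for 12. The median over the 21 genes of the log2 CPM over the control mean was 0.24, 0.64, 0.37 and 0.30 in B6 BMS493 replicates 1 to 4, and 0.35, 0.50, 0.33 and 0.39 in A/J BMS493 replicates 1 to 4. Sums of several marker lists also stood apart in these B6 libraries. The summed CPM of 17 distal epithelium genes, none of them at 0 in all libraries, was 1411, 2643, 1873 and 1598 in replicates 1 to 4, against 1380 to 1659 in B6 controls. Proximal epithelium (11 genes) was at 50.8, 93.9, 82.2 and 56.9 CPM, against 64.2 to 73.3. The mast cell sum reached 144 in replicate 2, against 115 to 129 in controls, and the red cell sum 3122 in replicate 3, against 2040 to 2737. Of the 144, Kit gave 103 CPM and Gata2 17.3. The protease genes Cma1 and Cpa3 were highest in replicate 4, at 4.64 and 5.38 CPM, and Tpsb2 and Mcpt4 in replicate 2. Replicates 2 and 3 were the libraries with high epithelial sums, but in replicate 3 the genes of the distal and proximal lists were split. Its Sftpc (581 CPM, against at most 342 in B6 controls) and Scgb3a2 (27.4 CPM, against at most 16.7) were high. Sftpb, Abca3, Cldn18, Lpcat1 and Foxj1 were among the others above all B6 controls. Etv5 and Muc1 lay below all B6 controls, and Nkx2-1, Id2, Sox9, Bmp4 and Sox2 lay within their range. The mesenchyme genes were split in replicate 3. Their summed CPM (13 genes) was 8060, 8827, 14755 and 8873, against 9366 to 9647 in B6 controls, and the 14755 was carried by the collagen genes Col1a1 (5530 CPM), Col1a2 (3729 CPM) and Col3a1 (4415 CPM). In the same library the transcription factor genes Foxf1 (117 CPM), Tbx4 (197 CPM) and Tbx5 (130 CPM) were at the lowest of their group, and a second list of 5 mesenchyme markers summed to 570 CPM, against 719 to 765 in controls. The smooth muscle and lymphatic vessel sums were lower in all 4 B6 BMS493 libraries, at 1773 to 2026 against 2045 to 2168 in controls and at 283 to 340 against 355 to 383, and in A/J both overlapped, at 1656 to 1898 against 1741 to 2047 and at 306 to 353 against 342 to 375. The neural and mesothelium sums were lower in all 4 A/J BMS493 libraries, at 32.8 to 47.0 against 49.1 to 53.8 in controls and at 241 to 259 against 264 to 289, and in B6 both overlapped, at 39.9 to 51.2 against 50.03 to 58.9 and at 273 to 326 against 271 to 296. In A/J the sums were 1159 to 1367 and 1172 to 1415 for distal epithelium, and 5882 to 7413 and 7269 to 7697 for mesenchyme, in control and BMS493 lungs. A/J BMS493 replicate 2, the highest of its group for 8 of the 21 genes, also had the highest A/J sums for distal epithelium, at 1415, and for 5 lung epithelium markers, at 866 against 643 to 776 in A/J controls. The part of these cell types in the values of single libraries was not tested. The sums of 5 thymus, 5 heart, 5 liver, 5 skeletal muscle and 6 oesophagus markers were at most 0.525, 27.0, 12.7, 2.77 and 2.69 CPM in any library.

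**Figure D1:**
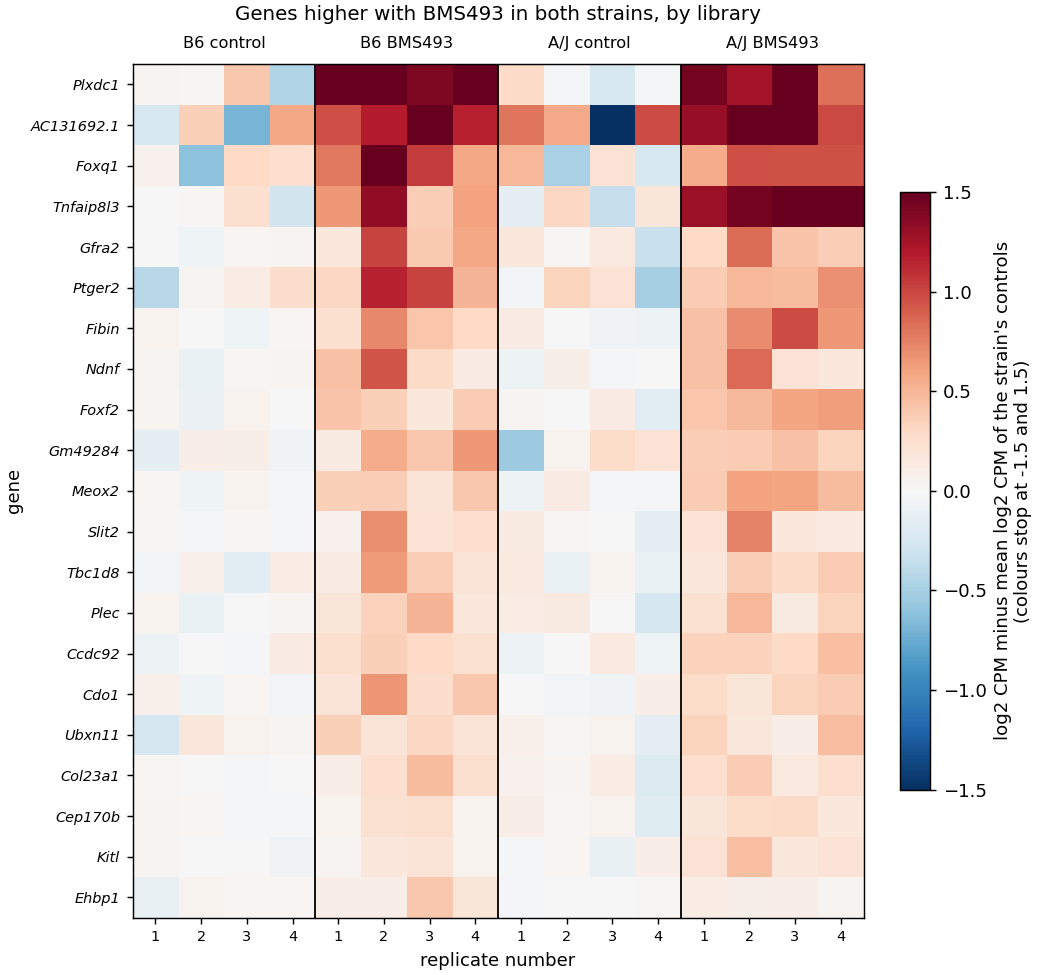
Each row is 1 of the 21 genes and each column 1 library. Colour gives the log2 CPM minus the mean log2 CPM of the 4 controls of the same strain, so red is above and blue below the controls. Replicate 2 of the B6 BMS493 group is the reddest column of its group, with a median of 0.64 over the 21 genes.

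The sizes ran from slight to about 3-fold. Fold changes were taken from a model fitted with edgeR to all genes that passed a filter on low counts, and all 21 passed. The median log2 fold change of the 21 was 0.36 in B6, from 0.13 to 1.64, and 0.35 in A/J, from 0.081 to 1.45. Over all 17276 genes tested the median was 0.0070 in B6 and -0.0019 in A/J. In each strain 3 of the 21 reached at least 1 on the log2 scale, while 15 in B6 and 14 in A/J stayed under 0.5. The same model called 5 of the 21 higher in B6, where 0.0752% of all genes tested were, and 5 in A/J, where 0.0637% were. This contrast chose the genes, so nothing is read from these counts. Over all genes, the 13 called higher in B6 fell to 1 without B6 control replicate 1 or 2 or B6 BMS493 replicate 2. Within a group the SD of log2 CPM had a median of 0.15 for the 21 genes and 0.14 for all genes with a mean CPM of at least 1. Differences between the strains in the size of the BMS493 effect were not tested, because the rule used both effects.

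The genes lay on 14 chromosomes and 20 of them are protein-coding. By role they fall into transcription factors, secreted proteins, receptors and other membrane proteins, cytoskeletal and trafficking proteins, and enzymes or lipid-handling proteins, with 2 genes that carry no descriptive name. The 12 genes with the largest effect in their weaker strain are given library by library, and the others by their range.

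Among the transcription factors were a pair of forkhead genes that are neighbours on chromosome 13, and a homeobox gene. Foxq1 (ENSMUSG00000038415, chromosome 13) encodes a forkhead factor known from epithelia. In B6 its level was 3.44, 2.15, 4.06 and 3.94 CPM in control replicates 1 to 4 and 5.73, 9.99, 6.84 and 4.92 CPM with BMS493. In A/J it was 4.01, 2.03, 3.30 and 2.40 CPM in controls and 4.18, 5.55, 5.51 and 5.50 CPM with BMS493. The B6 group with BMS493 spread widely, with replicate 2 the highest, and in A/J replicate 1 lay below the other 3. On the log2 scale the change was 1.05 (SE 0.24) in B6, 0.81 without B6 BMS493 replicate 2, and 0.82 (SE 0.24) in A/J.

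Foxf2 (ENSMUSG00000038402, chromosome 13) encodes a forkhead factor of mesenchyme. Its B6 level was 88.8, 81.4, 89.5 and 86.5 CPM in controls and 117, 111, 96.6 and 112 CPM with BMS493. Its A/J level was 76.7, 74.5, 81.0 and 65.9 CPM in controls and 99.4, 104, 112 and 114 CPM with BMS493. It was among the 6 genes whose 8 BMS493 libraries all lay above all 8 controls of both strains, with Foxq1, Tnfaip8l3, Fibin, Ccdc92 and Ehbp1. Over all genes with a mean CPM of at least 1 this held for the same 6 (0.0413%), since such a gene always meets the rule, and nothing is read from the count. BMS493 over control, the log2 fold change was 0.35 (SE 0.071) in B6 and 0.52 (SE 0.071) in A/J. Per kilobase of exon Foxf2 had the highest mean level of the 21 genes, 39.96 CPM per kb, and Plxdc1 the lowest, 0.351 CPM per kb.

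Meox2 (ENSMUSG00000036144, chromosome 12) encodes a homeobox factor of mesoderm and vessel walls. Its level in B6 was 61.7, 57.6, 62.8 and 59.5 CPM in controls and 77.5, 78.2, 69.1 and 79.7 CPM with BMS493. Its level in A/J was 40.9, 47.0, 42.4 and 42.6 CPM in controls and 56.4, 65.8, 64.9 and 59.9 CPM with BMS493. The libraries of a group lay close together, and the B6 controls overlapped with the A/J lungs given BMS493. Its log2 fold change was 0.35 (SE 0.068) in B6 and 0.51 (SE 0.068) in A/J.

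**Figure D2:**
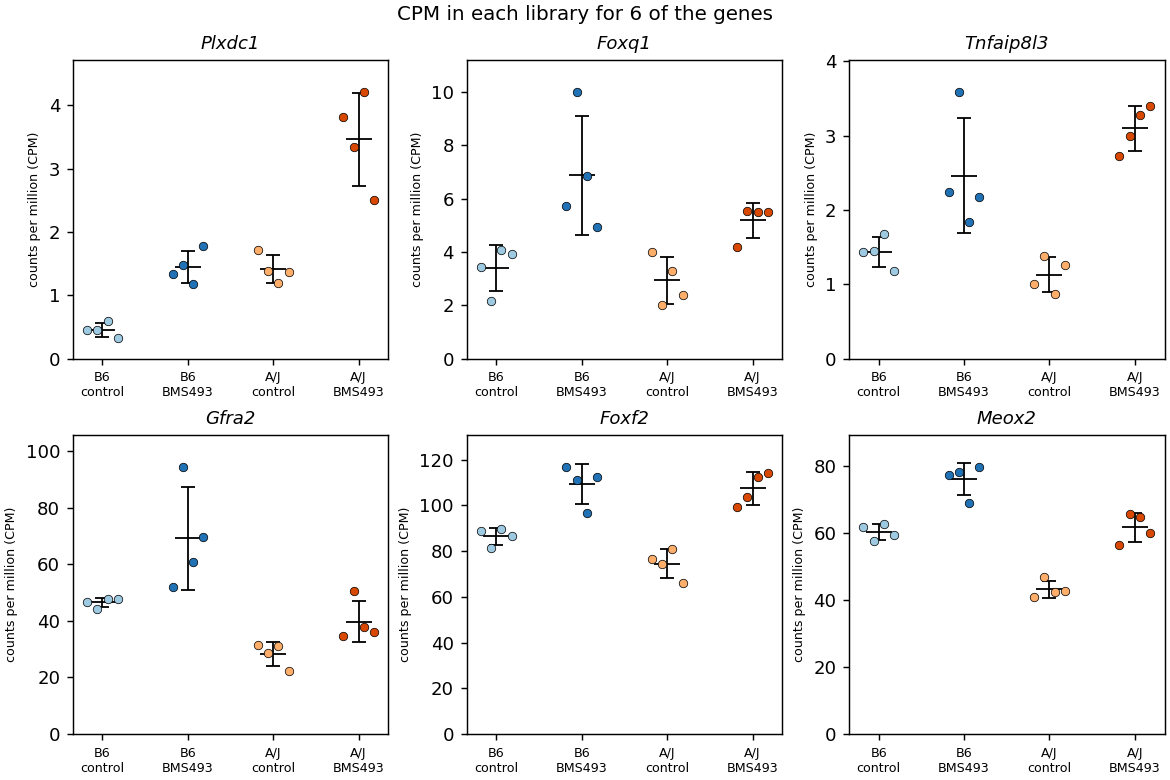
CPM (y axis, from 0) of Plxdc1, Foxq1, Tnfaip8l3, Gfra2, Foxf2 and Meox2 in each of the 4 groups. Points are libraries, horizontal bars the mean and vertical bars the SD over 4 libraries. In B6 BMS493 the highest point is replicate 2 for Foxq1, Tnfaip8l3 and Gfra2, and Plxdc1 is higher in A/J than in B6 in both treatments.

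The genes around Foxq1 and Foxf2 were examined because both belong to the set; this list was chosen after the values were seen. In the RefSeq annotation of GRCm38.p6 the order along chromosome 13 is Foxq1, the noncoding genes Gm11377 and 1700018A04Rik, Foxf2, a pair of small RNA genes, the forkhead gene Foxc1 and Gmds, an enzyme of fucose synthesis. Of the 6 neighbours listed, Exoc2, Hus1b, Gm11377, 1700018A04Rik, Foxc1 and Gmds, 5 were tested and none was called in either strain. 1700018A04Rik averaged 4.59 ± 0.558 CPM in B6 controls and 6.40 ± 0.745 with BMS493, and 3.88 ± 0.527 and 5.20 ± 1.33 CPM in A/J (SD, n = 4 each). Its log2 fold change was 0.50 (SE 0.18) in B6, where the groups did not overlap, and 0.43 (SE 0.18) in A/J, where they did, with edgeR adjusted p of 0.328 and 0.654. Gm11377 was at 0.31 (SE 0.21) and 0.43 (SE 0.21) and Foxc1 at 0.31 (SE 0.15) and 0.28 (SE 0.14). Farther out, Gmds was at -0.12 (SE 0.13) and 0.020 (SE 0.13) and Exoc2, of the exocyst complex, at -0.047 (SE 0.065) and -0.10 (SE 0.064). Over the 5 genes tested the median was 0.31 in B6 and 0.28 in A/J.

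**Figure D3:**
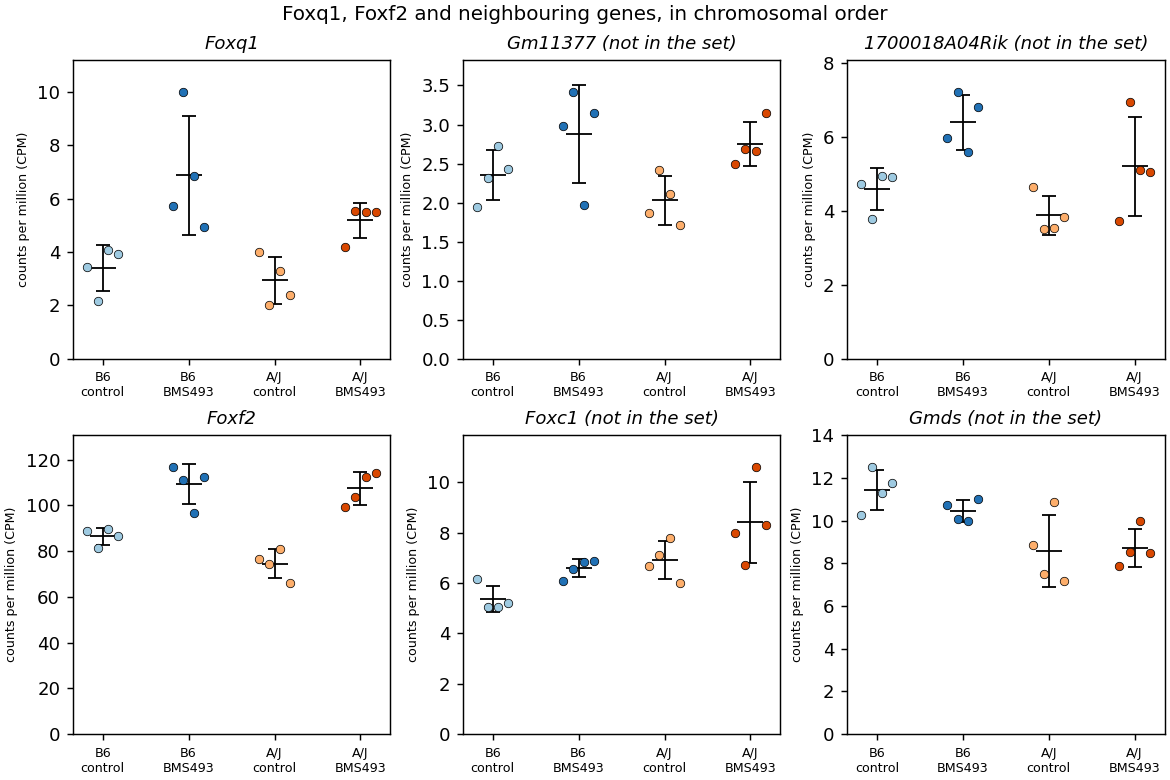
CPM (y axis, from 0) by group for Foxq1, Foxf2 and 4 neighbouring genes in their order along chromosome 13. Points are libraries, bars the mean and SD over 4 libraries. The groups separate by treatment in both strains for Foxq1 and Foxf2; for the 4 neighbours they overlap in at least 1 strain.

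The closest relatives of these factors did not follow one pattern. Foxf1, another forkhead gene of lung mesenchyme and a mesenchyme marker, fell in B6 by 0.40 on the log2 scale (SE 0.083, edgeR adjusted p = 0.0233) and was not called in A/J, at -0.25 (SE 0.083, adjusted p = 0.337). The B6 call was lost without B6 control replicate 1, 3 or 4 (adjusted p reaching 0.104). Meox1 was not called, at 0.35 (SE 0.12) in B6 and 0.11 (SE 0.12) in A/J. Of the 13 mesenchyme genes, Meox2 among them, Dcn and Lum, which encode small matrix proteoglycans, fell in B6 with Foxf1, by 0.80 and by 0.68. In A/J none of the 13 other than Meox2 was called. The median of the 12 other than Meox2 was 0.011 in B6 and 0.062 in A/J.

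The secreted proteins were Slit2, Kitl, Ndnf and Fibin. Slit2 (ENSMUSG00000031558, chromosome 5) encodes a guidance ligand for axons and migrating cells that binds Robo receptors. In B6 its level was 143, 139, 143 and 140 CPM in controls and 147, 229, 162 and 168 CPM with BMS493. In A/J it was 97.5, 89.8, 88.5 and 80.9 CPM in controls and 102, 149, 99.6 and 98.5 CPM with BMS493. Replicate 2 stood above the other BMS493 libraries in each strain, while the remaining BMS493 libraries lay closer to the controls. The fitted log2 change was 0.33 (SE 0.14) in B6 and 0.33 (SE 0.14) in A/J. Without BMS493 replicate 2 it was 0.19 in B6 and 0.16 in A/J. Of the 7 Slit and Robo genes none was called in either strain, with Slit3 at -0.038 and 0.034 and the receptor Robo2 at 0.28 and 0.15 in B6 and A/J.

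Ndnf (ENSMUSG00000049001, chromosome 6) encodes a secreted glycoprotein that acts on neurons and vessels and can restrain FGF receptor signalling. Its level was 95.1, 85.9, 93.8 and 94.7 CPM in B6 controls and 125, 177, 112 and 100 CPM in B6 with BMS493. In A/J it was 65.4, 72.9, 67.7 and 69.2 CPM in controls and 93.4, 124, 80.2 and 77.0 CPM with BMS493. Replicate 2 was again the highest BMS493 library of each strain. The log2 fold change was 0.49 (SE 0.16) in B6 and 0.44 (SE 0.16) in A/J, and 0.30 and 0.28 without BMS493 replicate 2. The FGF feedback inhibitors Spry1, Spry2, Spry4, Dusp6, Spred1 and Spred2 were not called in either strain.

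Fibin (ENSMUSG00000074971, chromosome 2) encodes a secreted protein named for its role in fin bud initiation. It was at 36.8, 35.2, 33.8 and 36.0 CPM in B6 controls and at 41.7, 58.5, 47.3 and 43.7 CPM in B6 with BMS493. It was at 33.3, 30.6, 29.6 and 29.0 CPM in A/J controls and at 41.6, 50.2, 60.4 and 48.0 CPM in A/J with BMS493. The control levels of the strains were close and all 8 BMS493 libraries lay above both. On the log2 scale the change was 0.45 (SE 0.10) in B6 and 0.70 (SE 0.10) in A/J.

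Kitl (ENSMUSG00000019966, chromosome 10) encodes stem cell factor, the ligand of the receptor Kit, on which mast cells depend. Its range was 133 to 141 CPM in B6 controls and 142 to 157 CPM with BMS493, and 102 to 118 and 123 to 151 CPM in A/J. The separation was narrow in B6, with a log2 fold change of 0.13 (SE 0.065), and 0.26 (SE 0.065) in A/J. The receptor Kit was at -0.12 (SE 0.11) in B6 and -0.31 (SE 0.12) in A/J and was not called. Of 19 mast cell genes 9 were tested. In A/J 3 of them rose, the protease genes Cma1 by 2.03, Cpa3 by 1.55 and Tpsb2 by 1.49, and in B6 none was called. The Tpsb2 call was lost without any one of the A/J controls and without A/J BMS493 replicate 3 or 4, and with a strand column (adjusted p reaching 0.1695). The summed CPM of the 19, of which Kit was the most abundant, spanned 115 to 129 without and 98.3 to 144 with BMS493 in B6. In A/J it spanned 81.4 to 90.0 without and 84.1 to 92.1 with the compound. Mrgprb1 was at 0 in all libraries.

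The promoters of 13 of the 21 genes were found in the RefSeq table of GRCm38.p6, which gives 250 bases before and 50 after each start. The 150 bases before the start are shown for the secreted ligands Slit2 and Kitl and the factor Meox2, whose windows hold the TATA box letters TATAAA close to the start, and for Foxf2, whose window holds none of the motifs searched. Capitals mark TATAAA, written as TTTATA where it lies on the opposite strand. All 4 are on the plus strand.
Slit2, chr5:47983005-47983154: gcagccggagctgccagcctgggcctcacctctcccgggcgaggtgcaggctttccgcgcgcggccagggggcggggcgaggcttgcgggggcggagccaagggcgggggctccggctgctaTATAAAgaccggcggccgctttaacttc
Kitl, chr10:100015671-100015820: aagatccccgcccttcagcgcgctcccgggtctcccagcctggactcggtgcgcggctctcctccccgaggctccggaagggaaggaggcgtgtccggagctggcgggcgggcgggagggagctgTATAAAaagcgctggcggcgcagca
Meox2, chr12:37108390-37108539: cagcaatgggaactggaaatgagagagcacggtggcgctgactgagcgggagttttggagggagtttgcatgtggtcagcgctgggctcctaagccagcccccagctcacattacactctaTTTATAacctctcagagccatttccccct
Foxf2, chr13:31625666-31625815: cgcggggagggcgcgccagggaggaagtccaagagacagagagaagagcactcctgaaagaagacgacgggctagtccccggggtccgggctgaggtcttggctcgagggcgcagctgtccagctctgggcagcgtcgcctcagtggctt
The letters began 28 bases before the start in Slit2 and 25 in Kitl, on the coding strand, and 29 before it in Meox2, on the opposite strand. TATAAA on either strand was found in 13.6% of all 32544 promoters of the same length and in 7.11% of the 13500 promoters of genes with a mean CPM of at least 1. Between 40 and 20 bases before the start it was found in 3 of the 13 genes, 2 of them on the coding strand. On either strand it was found there in 1.34% of those 13500 promoters. This narrower window was not in the planned search and spans the positions of the 3, so nothing is read from the comparison.

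The retinoid receptor motif AGGTCA was found on either strand in 2 of the 13 genes, Col23a1 and Ubxn11, in 16.2% of all promoters and in 12.1% of the promoters of genes with a mean CPM of at least 1. The variant AGTTCA was found in 1, Ubxn11, in 13.99% of all promoters and in 9.54% of those 13500. The direct repeats named DR5 and DR2 were found in none of the 13, in 0.0983% and 0.270% of all promoters and in 0.0444% and 0.0889% of those 13500. The AP-1 motif TGANTCA was found in none of the 13, in 7.79% of all and in 4.80% of those 13500. An AGGTCA inside a direct repeat is counted under both. The windows of the 13 genes were rich in G and C, with a median of 68.3%, from 37.7% for Ptger2 to 77.0% for Cep170b, against 61.0% over promoters of genes with a mean CPM of at least 1. The median number of CpG pairs was 27, against 20 in those promoters.

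Receptors and membrane proteins held the largest fold change in B6. Plxdc1 (ENSMUSG00000017417, chromosome 11) encodes a plexin domain protein, also known as a marker of tumour endothelium. Its B6 level was 0.461, 0.456, 0.594 and 0.328 CPM in controls and 1.34, 1.48, 1.18 and 1.78 CPM with BMS493. Its A/J level was 1.72, 1.38, 1.19 and 1.37 CPM in controls and 3.81, 3.34, 4.20 and 2.50 CPM with BMS493. The A/J controls lay at about the level of the B6 lungs given BMS493. The values rest on few reads, between 5 and 12 counts in each B6 control library and 50 to 90 in each A/J BMS493 library. BMS493 over control, the log2 fold change was 1.64 (SE 0.29) in B6, or 3.11-fold, and 1.28 (SE 0.23) in A/J, or 2.43-fold. Plxdc2, the only other gene of its family, was not called, at 0.032 (SE 0.091) and 0.020 (SE 0.091). The 16 endothelium genes gave a median of -0.015 in B6, where 1 of them, Sox7, fell, and -0.096 in A/J, where none was called. The Sox7 call, at -0.42, was lost on omitting any of 11 of the 16 libraries and with a strand column (adjusted p reaching 0.168).

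Gfra2 (ENSMUSG00000022103, chromosome 14) encodes the co-receptor for neurturin, which signals with the receptor Ret. In B6 it was at 46.6, 44.4, 47.6 and 47.7 CPM in controls and 51.9, 94.4, 60.9 and 69.8 CPM with BMS493. In A/J lungs it was at 31.5, 28.5, 31.3 and 22.3 CPM in controls and 34.5, 50.4, 37.8 and 36.2 CPM with BMS493. Replicate 2 was the highest BMS493 library in each strain, and all A/J BMS493 libraries other than replicate 2 lay below the B6 controls. Its log2 fold change was 0.59 (SE 0.16) in B6 and 0.48 (SE 0.17) in A/J, and 0.40 and 0.34 without BMS493 replicate 2. Ret at -0.19 (SE 0.13) and -0.15 (SE 0.13), Gfra1 at -0.27 (SE 0.13) and -0.48 (SE 0.13) and the ligand gene Nrtn at 0.32 (SE 0.21) and 0.19 (SE 0.21) were not called. The 12 tested neural genes, Ret and Gfra1 among them, had a median of -0.39 in B6 and -0.24 in A/J, and none was called.

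Ptger2 (ENSMUSG00000037759, chromosome 14) encodes EP2, a receptor for prostaglandin E2 that raises cyclic AMP and relaxes airway smooth muscle. Its level was 1.69, 2.32, 2.43 and 2.69 CPM in B6 controls and 2.79, 5.02, 4.54 and 3.21 CPM in B6 with BMS493. In A/J lungs it was 1.96, 2.55, 2.34 and 1.43 CPM in controls and 2.63, 2.86, 2.80 and 3.25 CPM with BMS493. The gaps between the groups were small beside the spread within them. The fitted log2 change was 0.79 (SE 0.22) in B6 and 0.46 (SE 0.23) in A/J. None of the 10 genes of prostaglandin E2 signalling and synthesis was called, with the receptors Ptger3 at -0.19 and 0.32 and Ptger4 at -0.36 and -0.049, and the synthase Ptges at 0.31 and 0.16, in B6 and A/J.

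Another receptor of airway tone came close to the set. Chrm2, a muscarinic acetylcholine receptor, rose in B6 from 5.61 ± 1.11 to 9.61 ± 2.25 CPM (SD, n = 4 each), by 0.81 on the log2 scale (SE 0.18, edgeR adjusted p = 0.0393). In A/J lungs it averaged 9.34 ± 2.13 CPM in controls and 15.2 ± 0.758 with BMS493, at 0.71 (SE 0.17, adjusted p = 0.0564). It was left out because 1 B6 BMS493 library at 6.64 CPM lay under the highest B6 control at 6.67. The B6 call was lost on omitting any of 11 of the 16 libraries, among them each of the B6 controls, and with a strand column (adjusted p reaching 0.211). Of the 16 smooth muscle genes tested, Chrm2 was the only one called higher, as it was of the 2 tested muscarinic receptor genes, and Actg2 fell in B6, by 0.43 (SE 0.063, adjusted p = 0.000947). The list's median was -0.13 in B6 and -0.10 in A/J.

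Col23a1 (ENSMUSG00000063564, chromosome 11) encodes a collagen that spans the cell membrane. Its range was 133 to 139 CPM in B6 controls and 146 to 188 CPM with BMS493, and 101 to 126 and 129 to 152 CPM in A/J. The log2 fold change was 0.28 (SE 0.075) in B6 and 0.26 (SE 0.075) in A/J. Of the other transmembrane collagens, Col25a1 rose in B6 by 0.43 (SE 0.092, edgeR adjusted p = 0.0349) and was at 0.29 (SE 0.094, adjusted p = 0.327) in A/J, while Col13a1 and Col17a1 were not called. The Col25a1 call was lost without any one of the B6 controls and without B6 BMS493 replicate 2 or 4, and with a strand column (adjusted p reaching 0.142).

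The enzymes and lipid-handling proteins were Tnfaip8l3 and Cdo1. Tnfaip8l3 (ENSMUSG00000074345, chromosome 9) encodes a protein that carries phosphoinositide lipids. Its B6 level was 1.44, 1.45, 1.68 and 1.18 CPM in controls and 2.24, 3.58, 1.84 and 2.18 CPM with BMS493. Its A/J level was 1.00, 1.38, 0.872 and 1.26 CPM in controls and 2.73, 2.99, 3.27 and 3.40 CPM with BMS493. All A/J BMS493 libraries lay above the B6 BMS493 libraries other than replicate 2. On the log2 scale the change was 0.79 (SE 0.24) in B6, 0.55 without B6 BMS493 replicate 2, and 1.45 (SE 0.24) in A/J. This was the largest effect of the 21 genes in A/J. Its relative Tnfaip8 was at -0.015 and 0.076, and none of the other 3 genes of the family was called.

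Cdo1 (ENSMUSG00000033022, chromosome 18) encodes cysteine dioxygenase, which commits cysteine to taurine and sulfate synthesis. Its range was 19.4 to 21.5 CPM in B6 controls and 23.3 to 32.2 CPM with BMS493, and 26.6 to 29.5 and 31.3 to 35.9 CPM in A/J. BMS493 over control, the log2 fold change was 0.41 (SE 0.091) in B6 and 0.29 (SE 0.088) in A/J. In B6 the highest library was again replicate 2, and without it the value was 0.30.

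The cytoskeletal and trafficking genes had small effects. Plec (ENSMUSG00000022565, chromosome 15) encodes plectin, a plakin that links intermediate filaments to junctions. Its range was 155 to 173 CPM in B6 controls and 187 to 236 CPM with BMS493, and 113 to 147 and 147 to 191 CPM in A/J. Its log2 fold change was 0.32 (SE 0.091) in B6 and 0.29 (SE 0.091) in A/J. Of the 6 plakins, which also include Dst, Macf1, Dsp, Evpl and Ppl, none was called in either strain. Their median without Plec was 0.26 in B6 and 0.059 in A/J.

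Cep170b (ENSMUSG00000072825, chromosome 12), which encodes a microtubule-associated protein, spanned 104 to 109 CPM without and 110 to 126 with BMS493 in B6. In A/J the spans were 90.7 to 110 and 114 to 125 CPM. Its log2 fold change was 0.16 (SE 0.066) in B6 and 0.22 (SE 0.066) in A/J. Ehbp1 (ENSMUSG00000042302, chromosome 11), which encodes a link between endocytic vesicles and actin, ranged over 34.3 to 38.4, 39.8 to 49.0, 37.2 to 38.4 and 38.7 to 40.8 CPM in B6 control, B6 BMS493, A/J control and A/J BMS493 lungs. At 0.081 (SE 0.071) its A/J effect was the smallest of the set, and in B6 it was 0.21 (SE 0.072). Without B6 BMS493 replicate 3, the highest library, the B6 value was 0.14. Ccdc92 (ENSMUSG00000037979, chromosome 5), a coiled-coil gene, ranged over 7.999 to 9.19, 9.91 to 10.8, 7.16 to 8.40 and 9.30 to 10.3 CPM in that order, with log2 fold changes of 0.29 (SE 0.11) and 0.35 (SE 0.11). For Ehbp1 and Ccdc92 the control levels of the strains overlapped and all 8 BMS493 libraries lay above all 8 controls.

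Tbc1d8 (ENSMUSG00000003134, chromosome 1), of the family of proteins that switch off Rab GTPases, spanned 13.5 to 16.2 CPM without and 16.3 to 23.3 with BMS493 in B6. In A/J the spans were 10.1 to 11.99 and 12.2 to 14.1 CPM. Its log2 fold change was 0.36 (SE 0.11) in B6 and 0.30 (SE 0.11) in A/J. Ubxn11 (ENSMUSG00000012126, chromosome 4), a UBX domain gene, ranged over 2.56 to 3.44, 3.49 to 3.93, 3.03 to 3.53 and 3.60 to 4.65 CPM in B6 control, B6 BMS493, A/J control and A/J BMS493 lungs, with log2 fold changes of 0.27 (SE 0.17) and 0.27 (SE 0.16), the first of which turned to -0.060 with a strand column. The first strand column held 50.95 to 52.05% of the stranded counts in every library, so the libraries carry no strand information, and reads from overlapping genes on opposite strands cannot be told apart in any column. In the GENCODE M21 models Tbc1d8 shares 420 exon bases with Rpl31, which averaged 512 CPM, Ubxn11 shares 188 with Sh3bgrl3, at 32.9 CPM, and Ptger2 shares 246 with Gm17173, at 0.0267 CPM. The part of these overlaps in the values was not tested.

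The unnamed genes were low. AC131692.1 (ENSMUSG00000117666, chromosome 19, protein-coding in M21) was at 0.410, 0.621, 0.297 and 0.722 CPM in B6 controls and 0.946, 1.10, 1.51 and 1.09 CPM in B6 with BMS493. In A/J lungs it was at 1.62, 1.38, 0.184 and 1.83 CPM in controls and 2.30, 2.90, 3.46 and 1.85 CPM with BMS493. A/J control replicate 3 held 4 counts and lay far below the other A/J controls, the highest of which nearly reached the lowest BMS493 library. The fitted log2 change was 1.18 (SE 0.45) in B6 and 1.08 (SE 0.38) in A/J, where it was 0.70 without A/J control replicate 3. Gm49284 (ENSMUSG00000114995, chromosome 15), a transcript still to be experimentally checked in M21, was at 1.85, 2.19, 2.18 and 1.97 CPM in B6 controls and 2.24, 2.99, 2.70 and 3.21 CPM in B6 with BMS493. In A/J lungs it was at 1.72, 2.59, 3.03 and 2.92 CPM in controls and 3.24, 3.26, 3.41 and 3.15 CPM with BMS493. The A/J BMS493 libraries lay close together, while A/J control replicate 1 lay below the other controls. The log2 fold change was 0.45 (SE 0.20) in B6 and 0.35 (SE 0.19) in A/J, where it was 0.20 without A/J control replicate 1.

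**Figure D4:**
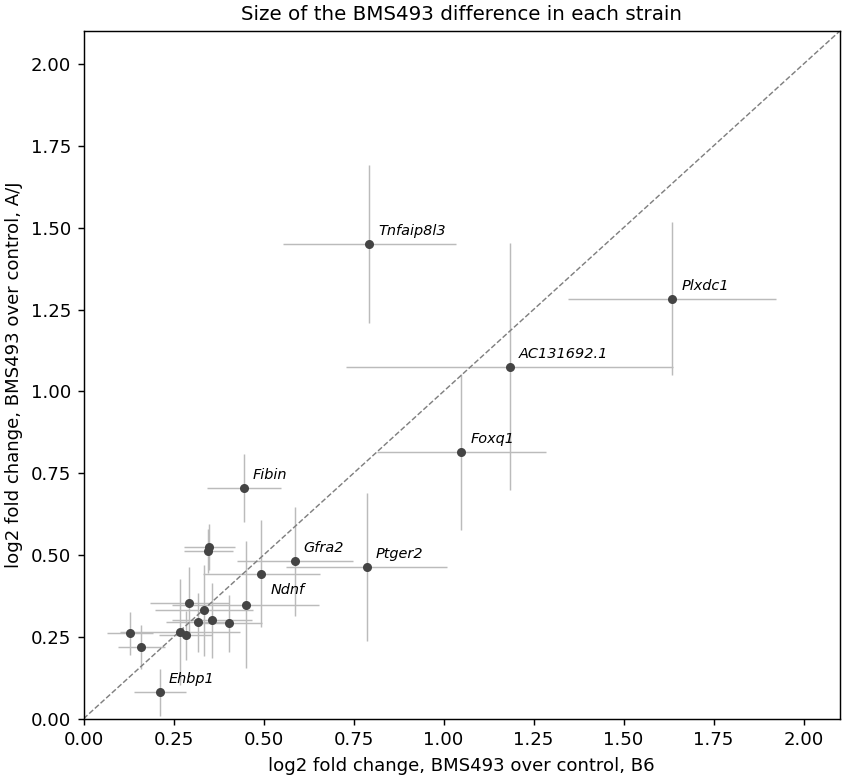
Each point is 1 of the 21 genes, with its log2 fold change (BMS493 over control) in B6 on the x axis and in A/J on the y axis. Bars are the SE of the edgeR fit over 4 libraries a group and the dashed line marks equal effects. The larger effect was in B6 for 14 genes and in A/J for 7, and Tnfaip8l3 lies farthest above the line.

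At its edge the rule turned on small differences. Just inside were Plec, with a lowest A/J BMS493 value of 147.2 CPM against a highest control of 147.1, Tbc1d8 in B6 with 16.28 against 16.22, and Kitl in B6 with 142.0 against 141.2. Just outside were Slc12a2 in A/J with 194.7 against 194.9, Pcdh17 in B6 with 140.3 against 140.5, and Ston2 in B6 with 57.03 against 57.13. The lowest mean levels inside were 1.39 CPM for AC131692.1 and 1.70 for Plxdc1, and Shisa6 met the separation but was left out at a mean of 0.886. With TMM scaling, which corrects for the makeup of libraries, the rule gave 23 genes, 19 of them shared, and Tbc1d8 and Plec were lost. A strand column holds the reads of 1 strand, so it applies the rule at a lower depth. It also treats reads over overlapping genes on opposite strands differently from the column without strand. The part of each in the counts that follow was not tested. Counted from 1 strand column the rule gave 21 genes, of which only 8 were shared, and from the other strand column 18, of which 10 were shared. Fibin, Ndnf, Tnfaip8l3, Plxdc1 and Meox2 met the rule in both strand columns, and 8 of the 21 genes met it in neither.

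The rule did not compare the strains, although its mean CPM minimum took in both. The difference between strains was tested with the edgeR model in control lungs and in lungs given BMS493. In control lungs 10 of the 21 genes (47.6%) differed, 2 higher and 8 lower in A/J, where 17.9% of the genes with a mean CPM of at least 1 did (7.39% higher and 10.6% lower). With BMS493 10 differed as well, 3 higher and 7 lower in A/J, where 21.4% of such genes did (8.58% higher and 12.8% lower). Plxdc1, higher in A/J in both counts, and AC131692.1, higher in the second, met the mean CPM minimum of 1 only through A/J. The count with BMS493 was 6 without A/J BMS493 replicate 3. Of the 98 genes of the mirror set 38.8% were called in each treatment. Both shares lay above those of all genes, and whether the 21 differ from the mirror set was not tested. The median difference, A/J over B6, was -0.21 in controls and -0.11 with BMS493 for the 21 genes, and 0.0081 and 0.0032 over all genes tested. In both treatments 9 of the 21 genes (42.9%) were called, where 13.1% of the genes with a mean CPM of at least 1 were. The contrasts share no libraries but come from the same fit, with the same estimate of spread for each gene. The rule also asked for a rise in both strains, which pushes the differences to be alike. Their agreement is thus partly fixed, and nothing is read from it.

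Plxdc1 was higher in A/J in both treatments, by 1.59 (SE 0.29) on the log2 scale in controls (edgeR adjusted p = 0.000251) and 1.24 (SE 0.23) with BMS493 (adjusted p = 0.000365). In controls it averaged 0.460 ± 0.109 CPM in B6 and 1.42 ± 0.219 in A/J (SD, n = 4 each). With BMS493 its B6 mean was 1.44, so over the B6 libraries alone its mean was under 1. It met the rule's minimum only through A/J, so its strain difference is tied to the rule. Cdo1 was higher as well, from 20.4 ± 0.954 CPM in B6 controls to 27.6 ± 1.33 in A/J controls, by 0.44 in controls and 0.32 with BMS493 (edgeR adjusted p = 0.00109 and 0.0105). AC131692.1 was called with BMS493 only, at 1.17 (SE 0.38) (edgeR adjusted p = 0.0318), and was at 1.28 (SE 0.45) in controls (adjusted p = 0.0503). Its B6 means were 0.513 CPM in controls and 1.16 with BMS493. It too met the minimum only through A/J, so its strain difference is tied to the rule. Its call was lost without B6 BMS493 replicate 1, 2 or 4 and without A/J BMS493 replicate 2 or 3, and with a strand column (adjusted p reaching 0.142).

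Gfra2 and Slit2 were lower in A/J by the largest amounts. Gfra2 averaged 46.6 ± 1.57 CPM in B6 controls and 28.4 ± 4.27 in A/J controls (SD, n = 4 each), a log2 difference of -0.71 (SE 0.17) (edgeR adjusted p = 0.00666), and with BMS493 the difference was -0.82 (SE 0.16) (adjusted p = 0.00178). Slit2 averaged 141 ± 2.07 CPM in B6 controls and 89.2 ± 6.79 in A/J controls, a difference of -0.67 (SE 0.14) (edgeR adjusted p = 0.00328), and -0.67 (SE 0.14) with BMS493 (adjusted p = 0.00265). Meox2 was lower in A/J, at -0.48 in controls (edgeR adjusted p = 9.71e-06) and -0.32 with BMS493 (adjusted p = 0.00121). For Tbc1d8 the differences were -0.47 and -0.52 (edgeR adjusted p = 0.00508 and 0.00131), the first of them lost with a strand column. For Kitl they were -0.32 and -0.19 (edgeR adjusted p = 0.000824 and 0.0376). The second Kitl call was lost without B6 BMS493 replicate 2 or 3 and without A/J BMS493 replicate 1, 3 or 4, and with no filter on low counts (adjusted p reaching 0.138).

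Plec, Col23a1 and Foxf2 were the remaining genes called, each lower in A/J. Plec was at -0.30 in controls and -0.32 with BMS493 (edgeR adjusted p = 0.0255 and 0.0134). The Plec calls were lost without B6 control replicate 1, 3 or 4 and A/J control replicate 3 or 4 in controls, and without B6 or A/J BMS493 replicate 3 with BMS493 (adjusted p reaching 0.102 and 0.0627). Col23a1 was at -0.22 and -0.24 (edgeR adjusted p = 0.0497 and 0.022). The control call of Col23a1 was lost on omitting any of 11 of the 16 libraries, and with RLE scaling, DESeq2, the filter at a mean CPM of 1, the library set as a covariate and a strand column (adjusted p reaching 0.199). Its BMS493 call was lost without B6 BMS493 replicate 3 and without A/J BMS493 replicate 1 or 3 (reaching 0.0916). Foxf2 was called in controls only, at -0.22 (SE 0.072) (edgeR adjusted p = 0.0382), and was at -0.040 (SE 0.071) with BMS493 (adjusted p = 0.748). Its call was lost without B6 control replicate 1, 3 or 4, without A/J control replicate 2 or 4, and with a strand column (reaching 0.158). Sizes differed between the sets of libraries numbered 1 to 8 (replicates 1 and 2) and above 8 (replicates 3 and 4). With BMS493 the difference of Col23a1 was -0.076 in the first set and -0.37 in the other, and that of Kitl -0.093 and -0.26. The signs of the 20 called differences were the same in both sets, which the calls over all libraries largely fix.

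**Figure D5:**
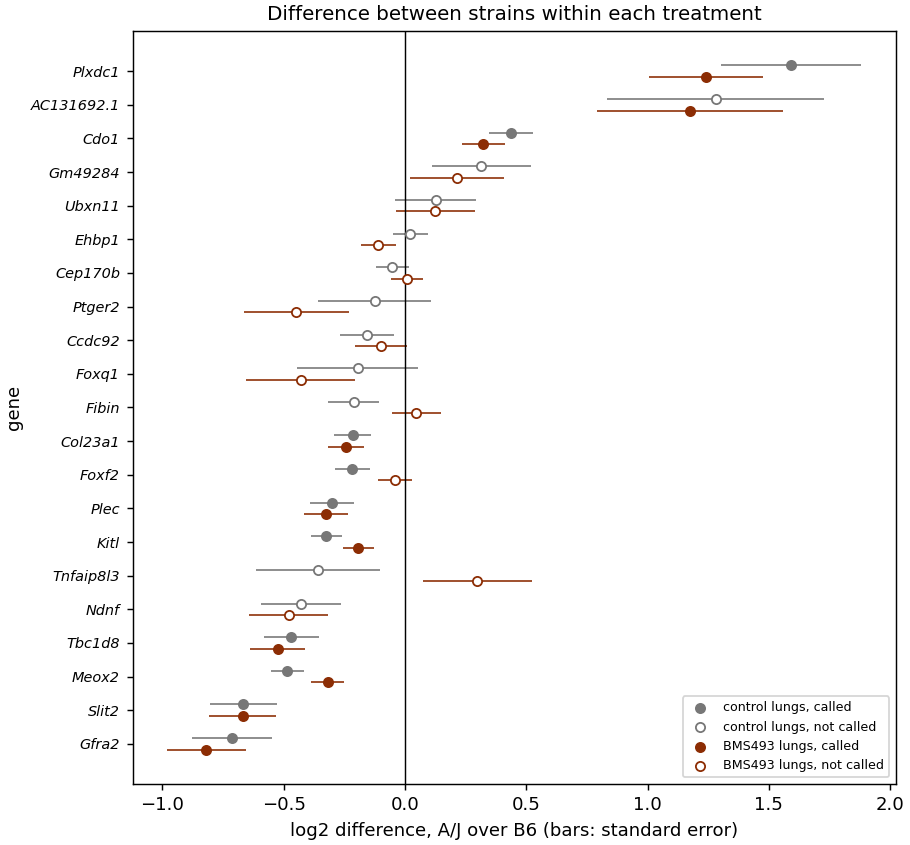
For each of the 21 genes (rows) the log2 difference A/J over B6 (x axis) in control lungs (grey) and BMS493 lungs (brown), with its SE over 4 libraries a group. Filled points were called by edgeR at an adjusted p under 0.05, 10 in each treatment. Plxdc1 lies farthest to the right in controls at 1.59 and Gfra2 farthest to the left at -0.71.

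The remaining lists that were tested beside these genes held few calls. The 4 Cas adaptor genes and the 4 genes of the MAL family each had 1 gene that rose in B6, Cass4 by 1.39 and Mal by 0.92, and none was called in A/J. The Cass4 call was lost on omitting any of 8 of the 16 libraries and the Mal call without B6 control replicate 1 or 2 or B6 BMS493 replicate 2 and with a strand column (adjusted p reaching 0.197 and 0.167). The Cass4 call was also lost with the replicate block, with the library set as a covariate and with a strand column. Of the 19 TGF-beta genes Tgfb3 fell in B6 by 0.35, a call lost without B6 control replicate 1 or 2 or B6 BMS493 replicate 2 and with a strand column (adjusted p reaching 0.111). None of the genes tested in the lists for distal and proximal epithelium, neuroendocrine cells, pericytes, lymphatic vessels, macrophages, red cells, mesothelium and the cell cycle was called in either strain. Their medians in B6 ran from -0.32 for neuroendocrine cells to 0.29 for distal epithelium, and in A/J from -0.23 for proximal epithelium to 0.11 for distal epithelium.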

How the data were processed

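RNA of 16 fetal mouse lungs was sequenced from poly(A)-selected libraries. The authors deposited raw counts per gene, with 57180 genes, 4 lines that are not genes and 3 columns of counts, 1 without strand and 1 for each strand. The submitters' processing notes name FastQC, cutadapt, STAR and the build GRCm39, and the annotation is not given in the sources used here. Genes were joined by identifier to GENCODE M21, so no coordinates of genes are given, and promoters came from RefSeq (GRCm38.p6). The column without strand was used.

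The genes described here, and the lists beside them, were chosen with earlier results of these data known. Of the 30 gene lists used, 8 were added after values were seen; markers of lung and other organs were summed beside them. Named genes were all 21 genes (12, those with the largest fold change in their weaker strain, library by library), the 3 nearest the rule on each side, the called genes of each list (up to 4 per strain) and set retinoid genes; neighbours and relatives of the 21 were named after their values were seen.

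A quasi-likelihood model of edgeR 4.0.16 (R 4.3.3; TMM scaling; filterByExpr; 1 coefficient per group; all 16 libraries, 12 residual degrees of freedom) gave log2 fold changes with SE and two-sided p-values, adjusted over 17276 genes by the Benjamini-Hochberg method and called under 0.05. The model was tested on simulated data. Alternatives were DESeq2 1.42.0, RLE scaling, other filters, a strand column, the library set (library numbers 1 to 8 against the rest), the replicate number and leaving out each library. The lowest chi-square per degree of freedom between replicate libraries was 3.51 over 24 pairs, so none was a copy of another.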

Additional observations from a re-analysis of the deposited data

Results flagged for a closer look

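In 5 of 84 groups of 4 values, 1 library lay apart from the other 3 by a gap, as a share of the whole range, beyond the critical value of Dixon, which chance gives in about 1 in 20 groups. Foxq1 in A/J with BMS493 was at 4.18 CPM in replicate 1 against 5.50 to 5.55 (ratio 0.966). Ndnf in B6 controls was at 85.9 CPM in replicate 2 against 93.8 to 95.1 (ratio 0.861). Slit2 in A/J with BMS493 was at 149 CPM in replicate 2 against 98.5 to 102 (ratio 0.926). Kitl in A/J with BMS493 was at 151 CPM in replicate 2 against 123 to 128 (ratio 0.835). Ehbp1 in B6 controls was at 34.3 CPM in replicate 1 against 37.7 to 38.4 (ratio 0.839).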

How the results depend on the processing

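The number of genes meeting the rule was 18 to 23 under other scalings, CPM minimums and columns of counts, and 24 to 51 when 1 library was left out, with 51 without B6 BMS493 replicate 1, 40 without B6 BMS493 replicate 3 and 33 without A/J control replicate 2 or A/J BMS493 replicate 3. All 21 genes remained in each run that left out 1 library, since fewer libraries make separation easier. Genes of the 21 called between strains numbered 7 to 11 in controls and 6 to 10 with BMS493 when 1 library was left out, the 6 without A/J BMS493 replicate 3. Of the 20 called strain differences 12 held in every alternative run. Over all genes, those called higher with BMS493 were 13 in B6 and 11 in A/J. They became 42 and 31 with DESeq2, 107 and 47 with no filter on low counts, 7 in A/J with a strand column, and 1 to 69 in B6 and 8 to 20 in A/J when 1 library was left out. Genes called lower were 60 and 73. They became 117 and 127 with DESeq2, 153 and 131 with no filter, and 26 to 132 and 42 to 101 when 1 library was left out. The log2 fold change of Ubxn11 in B6 reversed to -0.060 with a strand column, which differs in depth and in its treatment of overlapping genes. The cause of these moves was not tested. AC131692.1, the gene with the lowest mean CPM of the 21, had the largest SE in each contrast.

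Replicate numbers do not pair the samples: the deviations of same-numbered libraries correlated between -0.157 and 0.247. With the replicate number as a block, 11 of the 21 genes were called between strains in controls and 11 with BMS493, and 11 genes were called higher with BMS493 in B6 and 15 in A/J. The B6 calls of Stra6 and Cass4 were lost with the block.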
